A study of Sus scrofa with 37 samples.

Results

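The genes described here encode insulin-like growth factor (IGF) signalling proteins of the pig: the ligands IGF1 and IGF2, the receptors IGF1R, IGF2R and INSR, the adaptors IRS1 and IRS2, and the binding proteins IGFBP2, IGFBP5 and IGFBP7. They were chosen by symbol, with earlier results of these data known, through tables that pair Ensembl pig identifiers with symbols. Of the 10 symbols, 9 had a row among the 25880 gene identifiers of the count tables. IGF2 could not be matched to an identifier and was not analysed here. A wider list of 71 pathway genes, of which 64 had a row, is described after them.

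IGF1 and IGF2 bind the receptor tyrosine kinase IGF1R, which is closely related to the insulin receptor INSR. Active receptors phosphorylate IRS adaptors, which pass the signal to PI3 kinase and AKT and, with other adaptors, to the MAP kinases. IGF2R is a scavenger that carries IGF2 to lysosomes, and IGF-binding proteins hold the ligands in the extracellular fluid and control their access to the receptors. In rodent beta cells, insulin and IGF receptor signalling through IRS2 is known for its part in keeping beta cell mass.

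RNA had been sequenced from pancreas pieces and from islets, the endocrine clusters of the pancreas of pigs, with each sample labelled High or Low for islet density. Each pancreas sample was a 50 mg piece of duodenal lobe taken at organ retrieval, and each islet sample was purified and kept floating in culture for 7 days, so tissue and culture cannot be told apart. The labels give no breed, age or sex, and no method for density. Of 37 samples, 35 had counts that were analysed. In either tissue 8 libraries were labelled High and 9 Low, and 1 further islet library, from animal 12AS51, has no density label. There were 16 animals with a library from each tissue. Of these, 11 carry the same density label in both tissues, 4 carry opposite labels and 1 has no islet label.

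Some libraries stood apart. Gene counts ran from 3237653 to 6702589 in islets and from 1855075 to 3922006 in High pancreas, but 7 of the 9 Low pancreas libraries held only 265000 to 536014. These 7, called the shallow libraries below, include all 6 pancreas libraries from animals whose code begins with 14. Those animals are labelled Low in both tissues, and no High library comes from one. Levels are given as CPM, in which the counts of each library are scaled to sum to 1000000. The detection floor used here, 3 counts, equals 0.765 to 1.62 CPM in 10 pancreas libraries but 5.60 to 11.3 CPM in the 7 shallow ones. In the islet library without a label the 10 most abundant genes took 87.8% of counts, against 21.8% to 52.3% in the other islets, and every member has its lowest islet level there. The source name of that library and of islets High replicate 1 reads Pancreas although the title says islets. Acinar markers separated the tissues as titled, with summed levels of 12648 to 287839 CPM in pancreas and 5.52 to 556 CPM in islets. Summed pan-endocrine genes held 54980 CPM or more in the islets with a density label and 8478 CPM in the islet library without one, against 309 to 830 CPM in 8 of the 9 Low pancreas libraries, 657 to 3362 CPM in High pancreas and 16205 CPM in pancreas Low replicate 9. Of the 15 acinar genes with a row, CTRL was at 0 in every group.

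To see how IGF signalling genes differed between cultured islets and whole pancreas, 18 libraries of islets were set against 17 of pancreas. The ligand IGF1 was nearly absent from islets, the receptors IGF1R and IGF2R and the adaptor IRS2 were higher there, and INSR was lower. Of the 9 members tested, 4 rose and 2 fell in islets at a Benjamini-Hochberg adjusted p under 0.05 (edgeR quasi-likelihood test, used for every adjusted p of a gene here). Over all 12339 genes tested, 62.6% passed (31.1% higher and 31.5% lower), so a passing test is common between these tissues. The median log2 fold change was 0.62 over the members and −0.01 over all genes. In bulk RNA, fewer cells of a type and less RNA per cell cannot be told apart.

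**Figure D1:**
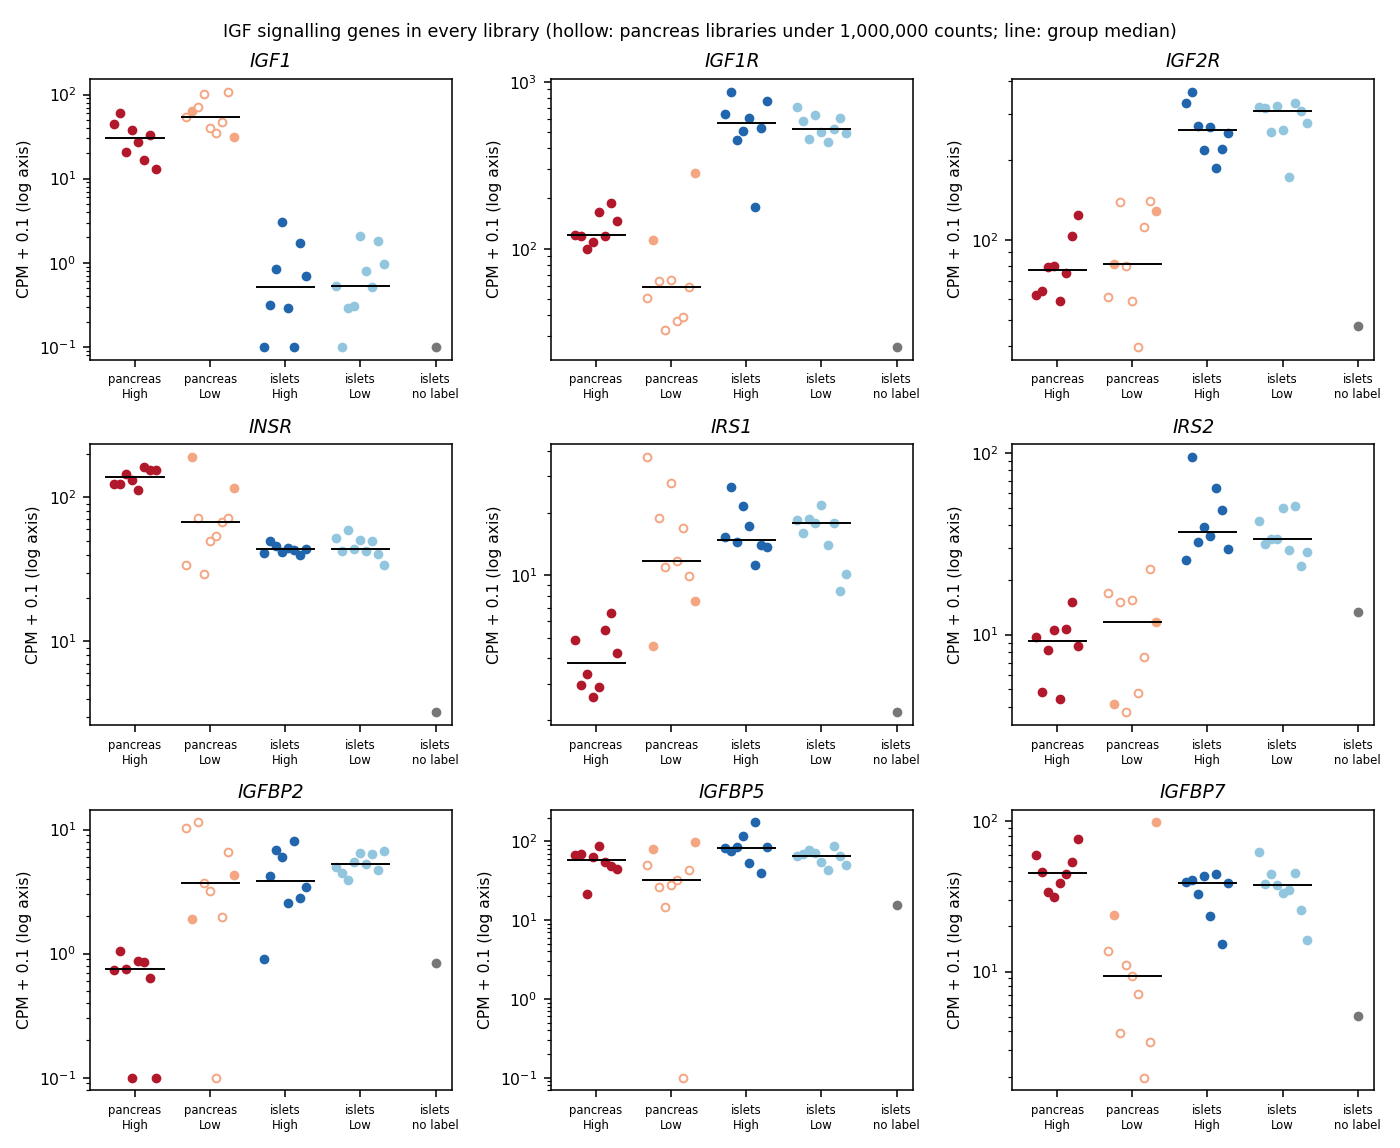
Level of each of the 9 members in every library (points; CPM + 0.1, log axis) by tissue and density label; hollow points are the 7 shallow pancreas libraries and lines are group medians. IGF1 lies at 2.93 CPM or less in islets and at 13.1 CPM or more in pancreas, IGF1R lies higher in most islet libraries, and the islet library with no label is low for each gene.

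IGF1 (ENSSSCG00000000857), the growth factor that growth hormone induces in liver and that many tissues make locally, had 13.1, 40.1 and 108 CPM in pancreas (lowest, median, highest). In islets it had 0, 0.424 and 2.93 CPM, with at most 12 counts in a library. Every islet library was below every pancreas library, 4 of the 18 had no count, and only 7 reached the floor of 3 counts. Mean levels were 47.3 ± 27.2 CPM in pancreas (SD, n = 17) against 0.713 ± 0.828 CPM in islets (SD, n = 18). This is a log2 fold change of −6.49 (adjusted p = 2.43e-18, SE 0.37), and IGF1 was lower in islets in 16 of 16 animals. Of the marker lists of other cell types, some were lower in islets and some were not. The summed fibroblast and stellate genes had a median of 729 CPM in islets and 327 CPM in pancreas, the endothelial genes 234 and 232 CPM, the myeloid genes 35.3 and 141 CPM, the smooth muscle genes 10.5 and 58.2 CPM, and the adipocyte genes 1.82 and 45.9 CPM. Duct genes had 563 and 2578 CPM. Hepatocyte genes had 2510 and 72.8 CPM when summed, but 3.68 and 3.39 as the mean of log2(CPM + 1) over the list. The part of any of these cells in the fall of IGF1 was not tested.

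IGF1R (ENSSSCG00000030560), the receptor that carries most growth signals of both IGFs, had 32.7, 110 and 284 CPM in pancreas and 25.8, 522 and 872 CPM in islets (lowest, median, highest). Of the 18 islet libraries 16 lay above every pancreas library. The 2 others were the library with no label, at 25.8 CPM (95% Wilson interval 22.2 to 29.95), and islets High replicate 6, at 179 CPM. IGF1R rose by 1.73 on the log2 scale (SE 0.20, adjusted p = 9.13e-10), and 15 of 16 animals had the higher level in islets.

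IGF2R (ENSSSCG00000004044) had 39.5, 79.5 and 141 CPM in pancreas and 47.3, 269 and 364 CPM in islets. Of the 18 islet libraries 17 were above all pancreas libraries, and without the pair whose source name reads Pancreas the tissues did not overlap. It rose by 1.09 on the log2 scale (SE 0.16, adjusted p = 1.38e-07). With every library thinned to the depth of the smallest the estimate was 0.32 and did not pass (adjusted p = 0.161).

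INSR (ENSSSCG00000013566), which binds insulin and, in some isoforms, IGF2, went the other way. It had 29.1, 116 and 189 CPM in pancreas and 3.13, 43.3 and 58.8 CPM in islets. The tissues overlapped through the shallow libraries, where INSR had 29.1 to 72.1 CPM, whereas the other 10 pancreas libraries held 112 to 189 CPM, above every islet library. INSR fell by 1.89 on the log2 scale (SE 0.17, adjusted p = 2.21e-12), and 14 of 16 animals were lower in islets.

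Because the receptors moved in opposite directions, their counts were set against each other within each library, which removes library size. This ratio and the 3 others below were chosen after the values of the genes were seen, so they are described with no test. Gene lengths were not corrected, so such a ratio is compared only between libraries and is not a ratio of transcripts. The IGF1R to INSR count ratio had a median of 13.3 in islets (4.15 to 17.6, n = 18) and 0.953 in pancreas (0.589 to 2.45, n = 17). No islet library reached down to the highest pancreas library, the library with no label included, at 8.07. The mean log2 ratio was 3.55 in islets and −0.03 in pancreas, a difference of 3.58. The ratio was higher in islets in 16 of 16 animals, and the difference was 3.54 without the shallow libraries.

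**Figure D2:**
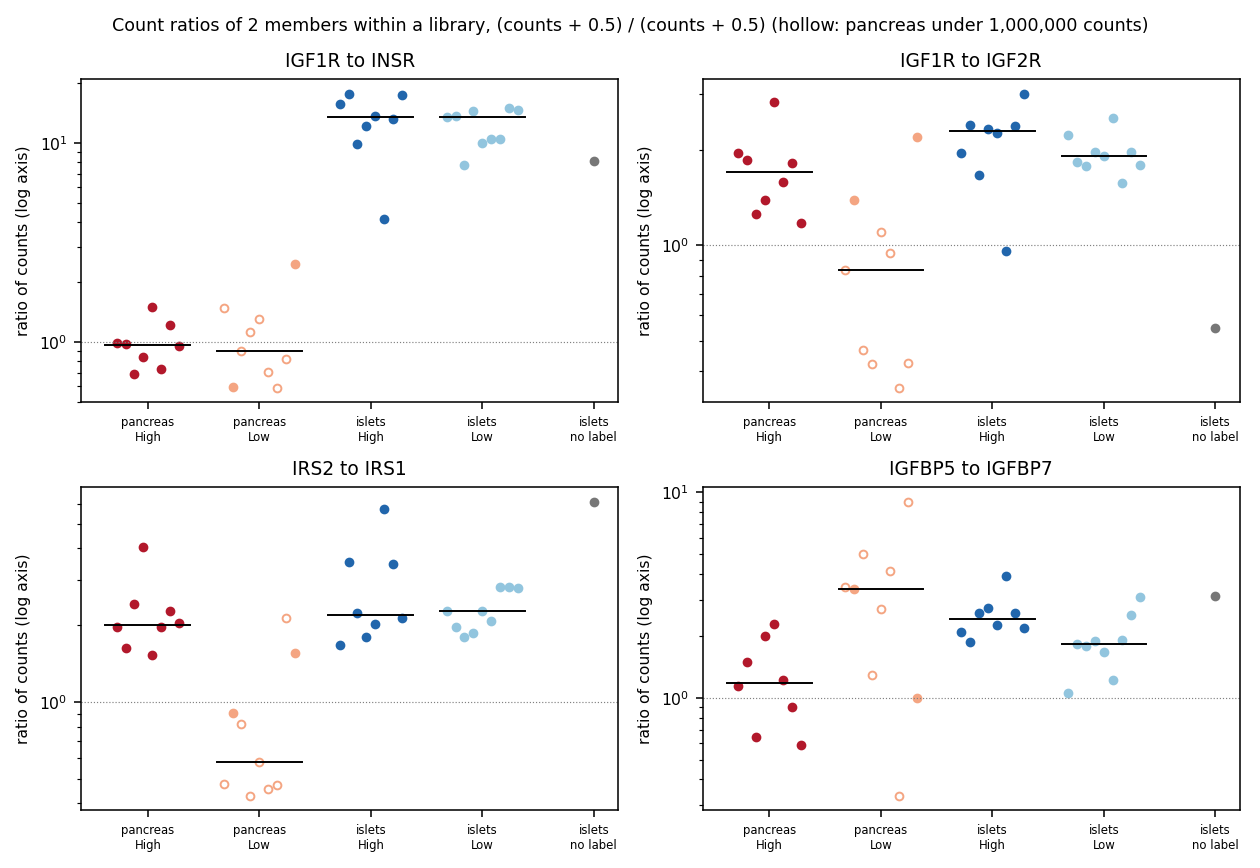
Count ratios of 4 pairs of members within each library (points, log axis) by tissue and density label; hollow points are the shallow pancreas libraries, lines are medians and the dotted line is a ratio of 1. The IGF1R to INSR ratio separates the tissues without overlap, at 4.15 to 17.6 in islets and 0.589 to 2.45 in pancreas, and the other 3 ratios overlap.

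The other ratios moved when the shallow libraries were left out. The IGF1R to IGF2R ratio had a median of 1.960 in islets and 1.25 in pancreas, a mean log2 difference of 0.75 that was 0.13 without them. The IGFBP5 to IGFBP7 ratio had a median of 2.13 in islets and 1.498 in pancreas, a mean log2 difference of 0.33 that was 0.75 without them.

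Both IRS adaptors were low in pancreas. IRS2 (ENSSSCG00000034763), the adaptor known for its part in beta cell growth in mice, had 3.64, 9.61 and 22.9 CPM in pancreas and 13.1, 33.3 and 94.7 CPM in islets. It was above all pancreas libraries in 17 of 18 islet libraries and higher in islets in 16 of 16 animals. IRS2 rose by 1.73 on the log2 scale (SE 0.26, adjusted p = 2.56e-07).

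IRS1 (ENSSSCG00000025729), the main adaptor in muscle and fat, had 2.50, 6.47 and 37.1 CPM in pancreas and 2.09, 15.6 and 26.7 CPM in islets. It did not pass, at 0.62 (SE 0.29, adjusted p = 0.0608). The shallow libraries had 9.83 to 37.1 CPM from 3 to 11 counts, and the other pancreas libraries 2.50 to 7.43 CPM from 9 to 15 counts. Without the shallow libraries IRS1 was higher in islets by 1.41 (SE 0.18, adjusted p = 2.01e-08), and the call was also made on leaving out any 1 of pancreas Low replicates 1, 3, 4, 5, 6 and 7 (0.66 to 0.82). The IRS2 to IRS1 count ratio had a median of 2.25 in islets and 1.55 in pancreas, a mean log2 difference of 1.06 that was 0.42 without the shallow libraries.

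Of the 3 binding proteins 1 passed. IGFBP2 (ENSSSCG00000035392), a binding protein with a preference for IGF2, was at 0, 0.951 and 11.3 CPM in pancreas and 0.746, 4.79 and 8.03 CPM in islets. No pancreas library had more than 8 counts, and 6 of 17 reached the floor, against 18 of 18 in islets. In the shallow libraries that floor equals 5.60 to 11.3 CPM, above the islet median, so these counts of libraries depend on depth. Mean IGFBP2 was 5.23 CPM in the shallow libraries, 1.03 CPM in the other pancreas libraries and 4.58 CPM in islets. The estimate was 1.23 on the log2 scale (SE 0.42, adjusted p = 0.0113) and 1.87 without the shallow libraries, but with the animal as a block it was 0.99 and did not pass (adjusted p = 0.105).

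IGFBP5 (ENSSSCG00000025924), which binds extracellular matrix, had 0, 48.0 and 97.6 CPM in pancreas and 15.5, 70.5 and 174 CPM in islets, and the estimate of 0.13 on the log2 scale did not pass (SE 0.26, adjusted p = 0.685). The tissues overlapped widely. The 95% interval of the difference was −0.39 to 0.65.

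IGFBP7 (ENSSSCG00000008913), a secreted relative of the classical binding proteins with low affinity for IGFs, had 1.87, 31.4 and 98.1 CPM in pancreas and 4.92, 38.1 and 62.0 CPM in islets. It did not pass, at −0.56 (SE 0.26, adjusted p = 0.056). Its CPM, from library totals that the fit rescales, was higher in islets in 9 of 16 animals and lower in 7. Without the shallow libraries, which had 1.87 to 13.5 CPM from 1 to 4 counts, it was lower in islets by a log2 value of −0.97 (SE 0.20, adjusted p = 7.77e-05). It also passed on leaving out any 1 of 11 libraries: the islet library with no label, islets Low replicate 1, islets High replicate 6 or pancreas Low replicates 1 to 8 (adjusted p = 0.0237 to 0.0443).

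**Figure D3:**
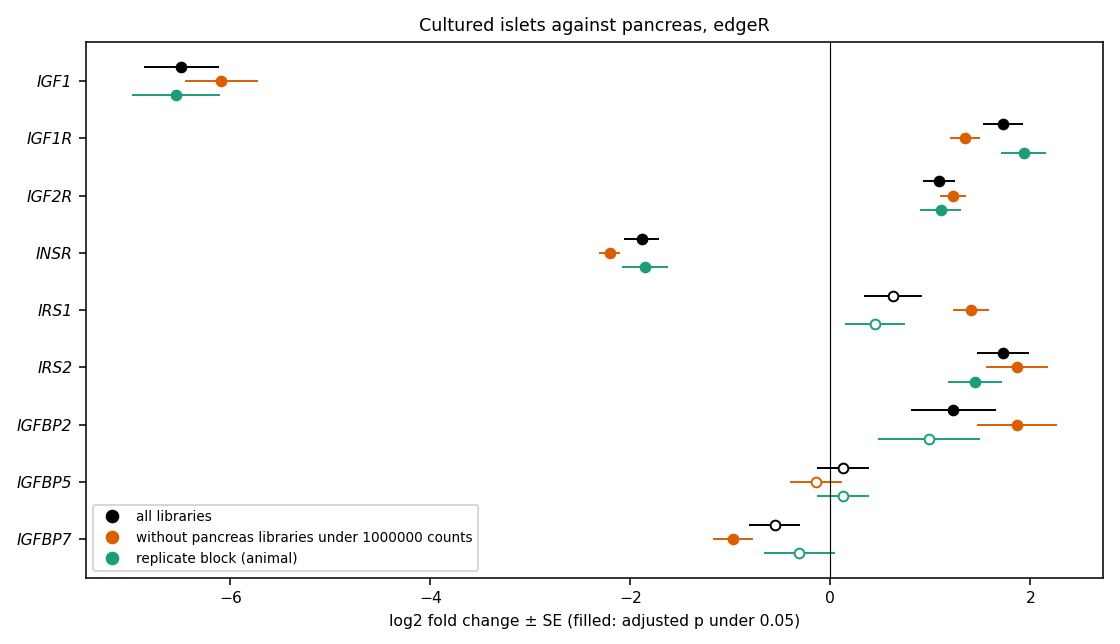
Log2 fold change ± SE of each member in islets against pancreas (x axis) with all libraries, without the shallow pancreas libraries and with the animal as a block; filled points have an adjusted p under 0.05. IGF1 and INSR lie below 0 and IGF1R, IGF2R and IRS2 above 0 in all 3 fits, while IRS1, IGFBP2 and IGFBP7 pass in some fits and not in others.

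In the wider pathway list 23 genes rose and 21 fell in islets among 59 tested, a share of 74.6% beside 62.6% of all genes, with a median log2 fold change of 0.09. The list holds the partners of the members rather than the members themselves. By role, the MAP kinase arm had 5 higher and 1 lower of 9, the AKT arm 5 and 3 of 10, the MTOR arm 2 and 5 of 10, PI3 kinase subunits 3 and 2 of 6, and regulators of the receptors 2 and 2 of 5. Pappalysins and stanniocalcins, proteases that cleave IGF-binding proteins and their inhibitors, had 1 higher and 3 lower of 4.

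The largest rise was in PAPPA2, a protease that cleaves IGFBP5 and IGFBP3. Its mean level was 37.9 ± 75.6 CPM in pancreas (SD, n = 17) and 1158 ± 478 CPM in islets (SD, n = 18). PAPPA2 rose by 4.54 on the log2 scale (SE 0.40, adjusted p = 4.72e-13), and by 5.31 without pancreas Low replicate 9, where it had 326 CPM. Its relative PAPPA was lower in islets (−1.80), as were the inhibitors STC1 (−2.49) and STC2 (−0.85). FOXO1, a transcription factor that AKT holds out of the nucleus, averaged 107 ± 31.2 CPM in islets and 9.74 ± 6.54 CPM in pancreas and rose by 2.74 (SE 0.18, adjusted p = 1.82e-16).

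The largest falls were in IGF2BP2, GRB10 and GRB14. IGF2BP2, which binds the IGF2 messenger RNA, averaged 2.15 ± 1.11 CPM in islets and 18.1 ± 4.55 CPM in pancreas, and fell by 3.59 on the log2 scale (SE 0.22, adjusted p = 1.7e-17). GRB10 and GRB14 bind the active insulin and IGF1 receptors and restrain them. GRB10 averaged 18.9 ± 6.16 and 149.7 ± 89.7 CPM (−3.49, SE 0.22, adjusted p = 5.04e-17), and GRB14 3.04 ± 1.32 and 14.0 ± 11.8 CPM (−2.94, SE 0.28, adjusted p = 6.31e-12).

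**Figure D4:**
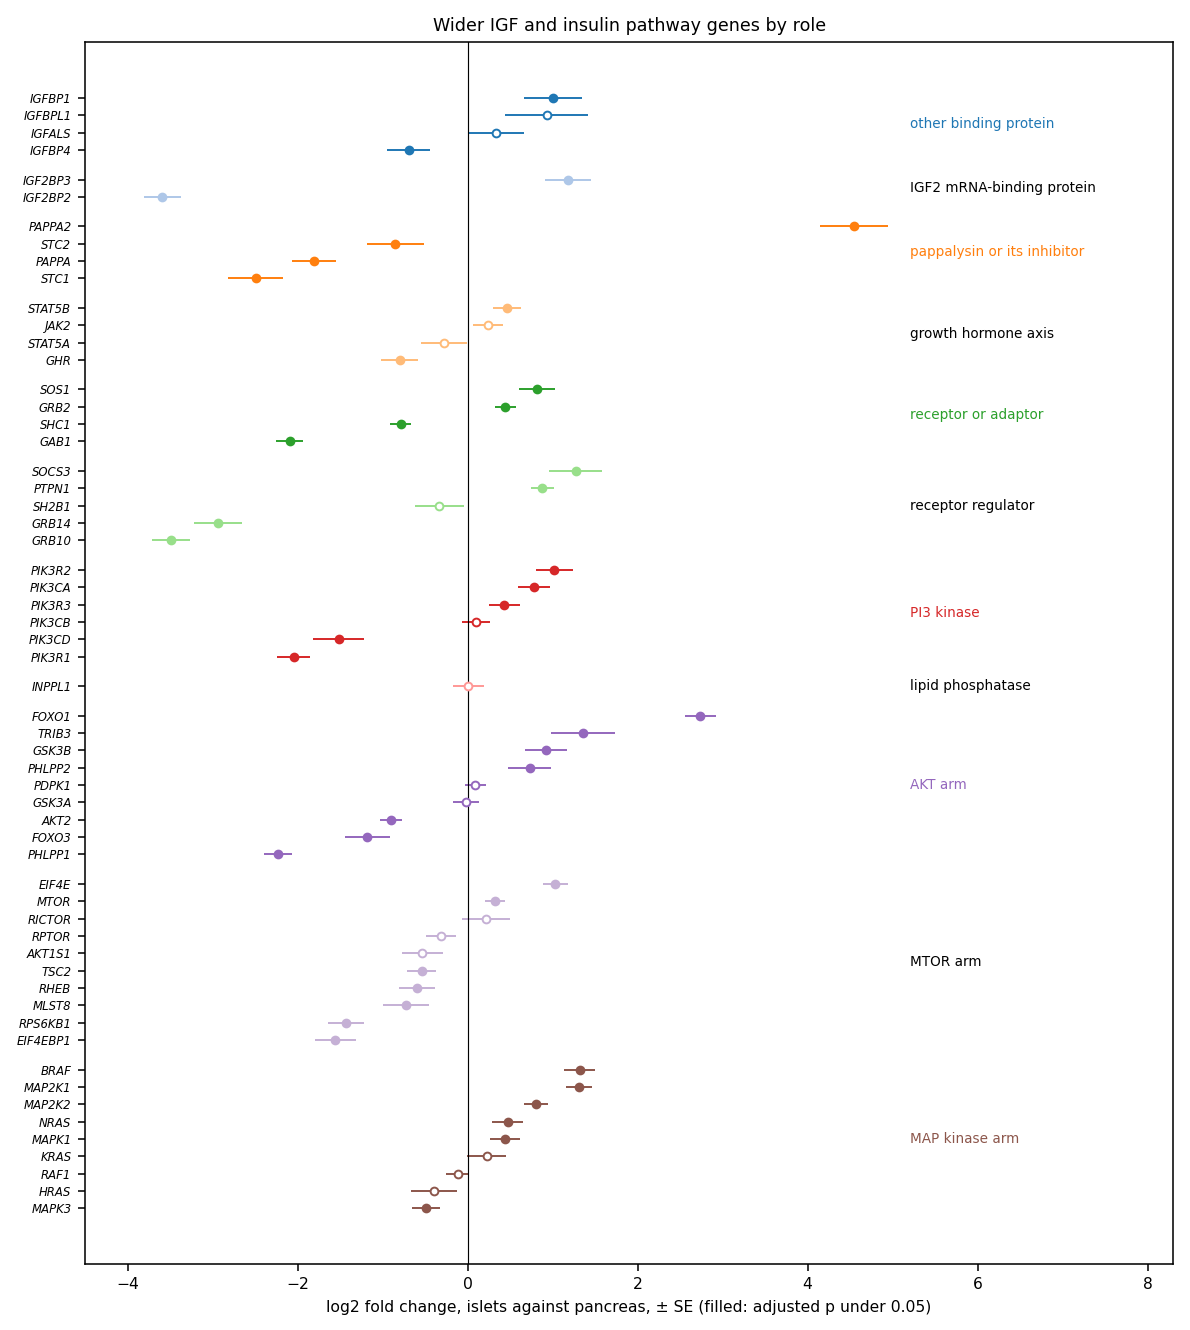
Log2 fold change ± SE in islets against pancreas for 58 of the 59 tested genes of the wider pathway list, grouped by role; filled points have an adjusted p under 0.05. PAPPA2 lies farthest to the right at 4.54, and IGF2BP2, GRB10 and GRB14 farthest to the left at −3.59, −3.49 and −2.94.

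To ask whether the members followed islet density in whole pancreas, 8 High and 9 Low libraries of that tissue were compared. IGF1R, INSR and IGFBP7 were higher and IGF1 and IRS1 lower in High among 8 members tested, while 40.3% of the 10634 genes tested passed (18.8% higher and 21.5% lower). All 7 shallow libraries were Low, and the label, depth and the levels of some marker lists moved together. The summed acinar genes held 182130 to 287839 CPM in High and 12648 to 129067 CPM in Low. Medians in High and Low were 3380 and 657 CPM for the summed duct genes, 33.9 and 114.6 CPM for smooth muscle and 108 and 165 CPM for myeloid genes. The part of these cells in the members' differences was not tested. Without the shallow libraries 0 of 13217 genes passed (edgeR), with 1222 at an unadjusted p under 0.05, and only 2 Low libraries remained. With the log2 library total as a covariate 0 of 10634 genes passed (533 at an unadjusted p under 0.05), and with the acinar level 0 (520 at an unadjusted p under 0.05). The pan-endocrine level was also used as a covariate, and there IRS1 and IGFBP7 kept their direction and call. Density, depth and animal code cannot be told apart in most of this comparison.

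INSR had 112, 137 and 162.1 CPM in High and 29.1, 67.2 and 189 CPM in Low (lowest, median, highest), and rose by 0.83 on the log2 scale (SE 0.26, adjusted p = 0.016). The 2 Low libraries that were not shallow had 116 and 189 CPM, within or above the High range, and without the shallow ones the estimate was 0.29 (adjusted p = 0.748). IGF1R had 99.2, 121 and 188 CPM in High and 32.7, 59.0 and 284 CPM in Low (0.75, SE 0.28, adjusted p = 0.0325). The same 2 Low libraries held 113 and 284 CPM. IGF1R was −0.049 once the shallow libraries were left out (adjusted p = 0.967), and the call also ended on leaving out any 1 of Low replicates 1 and 3 to 8 (adjusted p = 0.0606 to 0.0728).

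IGFBP7 had 31.4, 45.1 and 76.4 CPM in High and 1.87, 9.26 and 98.1 CPM in Low (1.22, SE 0.39, adjusted p = 0.0162). The median count per Low library was 3. Low replicate 9 had the highest value, and without it the estimate was 2.04 (adjusted p = 2.34e-05). It was 0.21 when the shallow ones were left out (adjusted p = 0.901).

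IRS1 had 2.50, 3.69 and 6.47 CPM in High and 4.48, 11.6 and 37.1 CPM in Low, with 9 to 15 counts per High library and 3 to 14 per Low library. IRS1 was lower in High by a log2 value of −2.03 (SE 0.44, adjusted p = 0.00108), and of −0.096 without the shallow libraries (adjusted p = 0.96). IGF1 had 13.1, 29.95 and 60.2 CPM in High and 31.3, 53.99 and 108 CPM in Low (−0.98, SE 0.36, adjusted p = 0.0328). Its call ended on leaving out any 1 of High replicates 3 to 8 or Low replicates 4 and 8 (adjusted p = 0.0599 to 0.0818), and without the shallow libraries it was −0.11 (adjusted p = 0.968). Leaving out Low replicate 4 or Low replicate 8 brought the members called from 5 to 3.

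The other members did not pass. IGF2R had a median of 76.9 CPM in High and 81.4 in Low (−0.31, SE 0.26, adjusted p = 0.353). It passed in animals with 1 label for both tissues, all of whose 6 Low pancreas libraries are shallow (−1.11, adjusted p = 0.000745), and after thinning (−1.26, adjusted p = 0.000725), but its sign turned in 5 other fits. IRS2 had medians of 9.11 and 11.7 CPM (−0.25, SE 0.37, adjusted p = 0.606), and IGFBP5 58.3 and 32.5 CPM (0.52, SE 0.37, adjusted p = 0.263). IGFBP2, with at most 3 counts per High library and 8 per Low library, was not tested. Within a library the IGF1R to INSR ratio had a median of 0.965 in High and 0.897 in Low, a mean log2 difference of −0.056. The mean log2 IGF1R to IGF2R ratio was 1.15 higher in High, but −0.065 without the shallow libraries and 0.29 without the animals whose code begins with 14. The IRS2 to IRS1 ratio was 1.54 higher, and 0.85 and 1.29 in the same subsets.

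**Figure D5:**
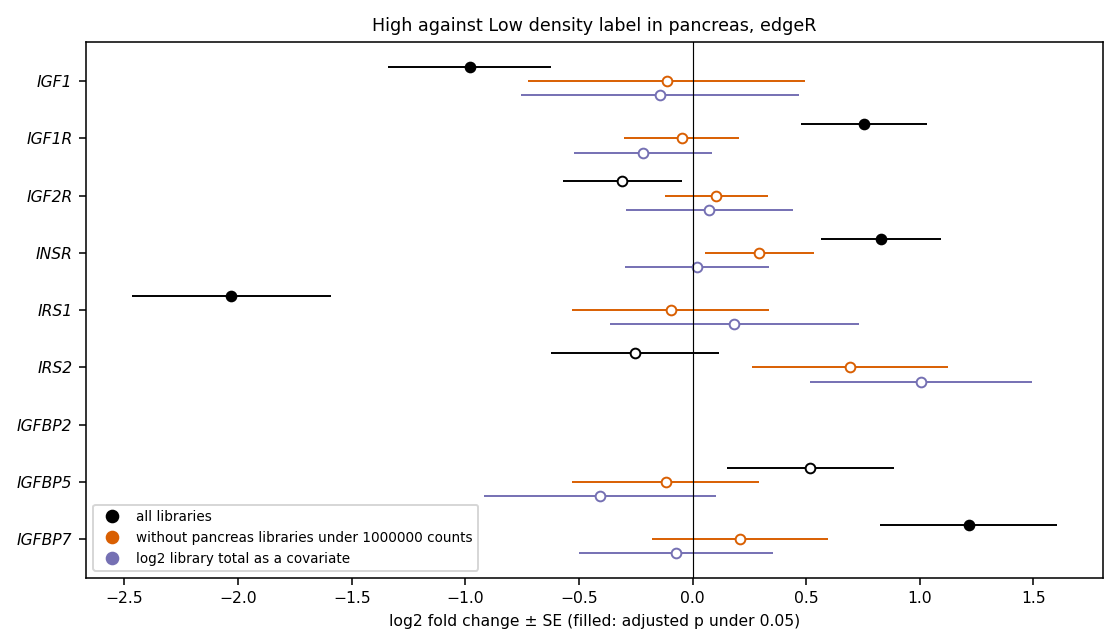
Log2 fold change ± SE of each member in High against Low pancreas (x axis) with all libraries, without the 7 shallow libraries and with the log2 library total as a covariate; filled points have an adjusted p under 0.05. With all libraries 5 members are filled, and none is in the other 2 fits; IGFBP2 was not tested.

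In the wider list 12 genes were higher and 9 lower in High pancreas of 53 tested, a share of 39.6% beside 40.3% of all genes. Mean levels of FOXO3, a transcription factor under AKT control, were 68.9 ± 67.2 CPM in Low (SD, n = 9) and 217 ± 55.2 CPM in High (SD, n = 8), a rise of 1.70 on the log2 scale (SE 0.35, adjusted p = 0.000845). EIF4EBP1, a repressor of translation that MTOR inactivates, followed at 1.36 (SE 0.31), and RICTOR, a subunit of MTOR complex 2, at 1.29 (SE 0.42). TRIB3, a pseudokinase that binds AKT, changed by −2.22 (SE 0.62), PIK3CD, a catalytic PI3 kinase subunit, by −1.85 (SE 0.41), and PHLPP2, a phosphatase of AKT, by −1.78 (SE 0.40). None of the 21 passed when the shallow libraries were left out (0 called with edgeR).

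The same question was asked of the islets, with 8 High and 9 Low libraries of more even depth. Leaving out animals whose code begins with 14 kept all 8 High libraries and 3 of the 9 Low ones. No member passed. Over all 12070 genes tested 0.00% passed (0 with edgeR, and 0 with DESeq2 and limma-voom), with 257 genes at an unadjusted p under 0.05 in edgeR, 297 in DESeq2 and 255 in limma-voom. Of the 8 members tested, 1 had an unadjusted p under 0.05 in edgeR. All adjusted p-values of members were 0.999.

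That member was IGFBP5, with 39.8, 83.1 and 174 CPM in High and 42.7, 65.3 and 86.1 CPM in Low. The estimate was 0.67 on the log2 scale (95% interval 0.05 to 1.29, unadjusted p = 0.0362). Without High replicate 6 it was 0.25. IRS2 had 25.5, 36.7 and 94.7 CPM in High and 23.7, 33.3 and 50.7 CPM in Low, a log2 fold change of 0.54 (95% interval −0.05 to 1.13) that was 0.32 without the same library. High replicate 6 also had the lowest IGF1R of the islets with a label, at 179 CPM, and its 10 most abundant genes took 52.3% of counts.

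The estimates for the receptors were 0.11 or less on the log2 scale. IGF1R had a median of 565 CPM in High and 520 in Low (0.11, 95% interval −0.19 to 0.42), IGF2R 261 and 308 CPM (0.0046, −0.24 to 0.25), and INSR 43.4 and 43.6 CPM (0.05, −0.22 to 0.32). INSR held 39.8 to 49.3 CPM over the High islets and 33.9 to 58.8 CPM over the Low ones. IRS1 differed by 0.17 (−0.22 to 0.56), IGFBP7 by 0.02 (−0.50 to 0.54) and IGFBP2 by −0.17 (−0.85 to 0.51). IGF1 was too low to be tested, with means of 0.789 ± 1.02 CPM in High (SD, n = 8) and 0.723 ± 0.692 CPM in Low (SD, n = 9), both near the floor of 0.565 to 0.927 CPM. Within libraries the IGFBP5 to IGFBP7 ratio had a median of 2.42 in High and 1.82 in Low, with a mean log2 difference of 0.46 that was 0.29 without the animals whose code begins with 14.

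A test of whether the density difference itself differed between the tissues passed for 4 of 9 members, where 39.9% of the 14337 genes tested passed. The difference in islets minus that in pancreas was −0.99 for INSR (SE 0.30, adjusted p = 0.00947), 1.72 for IRS1 (SE 0.42, adjusted p = 0.00207), 2.32 for IGFBP2 (SE 0.70, adjusted p = 0.00865) and −1.26 for IGFBP7 (SE 0.47, adjusted p = 0.0328). IGFBP2 was too low to be tested in pancreas alone, with at most 3 counts per High library and 8 per Low library. For IGF1R the difference in islets minus that in pancreas was −0.85 and did not pass (SE 0.37, adjusted p = 0.0585). It passed under 5 of 10 other settings. Among these were limma-voom (−1.04), a minimum of 1 CPM (−1.003), low counts kept (−1.23) and the animal block given below (−1.34). This fit took libraries of shared animals as separate, and its High and Low groups hold partly different pigs in the tissues. With the animal as a block, in the 11 pigs whose pancreas and islet labels match, 5 members passed: INSR (−1.68), IRS1 (1.53), IGFBP7 (−3.44), IGF1R (−1.34) and IGFBP5 (−1.33), and IGFBP2 did not (1.89, adjusted p = 0.109). More genes of the whole set passed in that fit than without the block (counts at the end), so a passing test was common there. The 5 calls are therefore not read as particular to the members. All 6 Low pancreas libraries of those 11 pigs are shallow, and the 6 Low pigs are those whose code begins with 14. Density, depth and animal code cannot be told apart there. None of the members passed without the shallow libraries (edgeR, 0 at an unadjusted p under 0.05), and 61 of 15210 genes did. That fit kept only 2 Low pancreas libraries. In the wider list 8 genes were higher and 17 lower of 60 tested. The insulin receptor relative INSRR (4.17, SE 1.26), the binding protein relative IGFBPL1 (3.14, SE 0.72) and TRIB3 (1.89, SE 0.61) led the rises, and FOXO3 (−1.82, SE 0.39), the growth hormone receptor GHR (−1.61, SE 0.40) and RICTOR (−1.44, SE 0.46) the falls. INSRR had a median of 1 count in High pancreas and 4 in Low. None of these 6 passed when the shallow libraries were left out.

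The secreted members differed in which other genes they followed across libraries. Likeness is given as Spearman's rho of log2 CPM from scaled library totals, over libraries that share depth and composition. Over the 18 islet libraries IGFBP7 was most like the matrix protein gene SPARC (0.88), the collagen receptor gene MRC2 (0.88) and the collagen gene COL6A1 (0.86). IGFBP5 was most like IPPK (0.83), the collagen gene COL5A3 (0.79) and the integrin gene ITGA8 (0.77), and IGFBP2 like ASB6 (0.86), CABLES1 (0.84) and CDA (0.81). Over the 17 pancreas libraries, where depth differs most, IGFBP7 was most like TIMP3 (0.92), PHYH (0.91) and GHR (0.90), IGF1 like NBL1 (0.87), MFN2 (0.87) and CACNA1E (0.85), and IGFBP5 like MCEE, GABPA and IRF2BPL (0.83 each).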

How the data were processed

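Both deposited tables, 1 per tissue, hold raw counts, that is reads assigned to each Ensembl identifier. Per the submitters' processing notes, the build was susScr3 and the tools included edgeR, Subread, HISAT2 (2.0.2) and FastQC. No label states the annotation release or the strand setting, so reads of overlapping genes cannot be told apart. Symbols were matched for 14857 of 25880 identifiers. No coordinates or sequences are given.

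Each column was assigned through the animal code in its name, and 1 column without a sample was not used. The titles' animal codes pair libraries across tissues, and the paired fit of the difference between tissues was added after the data were seen. The labels do not say that libraries come from separate cultures. No 2 libraries of a group were identical in 128 pairs.

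All genes of a comparison entered 1 fit in edgeR 4.0.16, run in R 4.3.3 (filterByExpr, TMM scaling, robust quasi-likelihood, two-sided, Benjamini-Hochberg over all genes tested, threshold 0.05). The code was checked on simulated counts. DESeq2 1.42.0 and limma-voom 3.58.1 were alternatives. CPM uses library totals, and fold changes and rho use scaled ones. Ratios are log2 of counts plus 0.5, were chosen after gene values were seen and are not tested. Intervals and floors cover counting error only, except those of fold changes.

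Members and lists were chosen with earlier results of these data known. All members are named, and of the wider list the 3 largest rises and 3 largest falls that passed in each comparison, and for secreted members the 3 genes with the highest rho. Of the wider list 1 gene is counted but not reported here. PAPPA, STC1 and STC2 were added after their values were seen.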

Additional observations from a re-analysis of the deposited data

Results flagged for a closer look

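In pancreas Low replicate 9, IGF1R stood at 283.8 CPM, far from the 32.7 to 113 CPM of the other 8 Low libraries, 7 of them shallow. IGFBP7 stood at 98.1 CPM there, far from their 1.87 to 23.7 CPM. The same library held 16205 summed CPM of pan-endocrine genes, against 309 to 830 CPM in the other Low libraries, and their part in these values was not tested. In islets Low replicate 6, IGF2R stood at 173 CPM, below the 256 to 330 CPM of the others. Of 36 groups of values examined 3 had such a distant library. The usual chance rate of about 1 in 20 is for groups of 1 kind of library. It does not apply to Low pancreas, which mixes shallow and deeper libraries.

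The density difference differed between the tissues for INSR (−0.99), IRS1 (1.72), IGFBP2 (2.32) and IGFBP7 (−1.26). These are 44.4% of the members tested, near the 39.9% of all 14337 genes tested, so such a call was common. With the animal as a block, in the pigs whose pancreas and islet labels match, all but IGFBP2 (1.89, adjusted p = 0.109) passed. None of the 4 passed when the 7 shallow pancreas libraries were left out, a fit that kept only 2 Low pancreas libraries. IGFBP2 had at most 3 counts per High pancreas library and 8 per Low one, too few to be tested in pancreas alone.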

How the results depend on the processing

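Between tissues, IGF1, IGF1R, INSR and IRS2 kept their direction and their call under each alternative in which they were tested. With the animal as a replicate block 5 members were called in place of 6, the call of IGFBP2 being the one lost (0.99), and the IGF1R to INSR difference was 3.74. Thinning to the smallest library, with fewer genes tested, left 2154 genes and 2 of 4 members called, with 14 wider pathway genes, and turned IGFBP5 to −0.46. No low-count filter gave 15012 genes, and IGFBP5 was −0.15 without the shallow libraries. IRS1, not called with all libraries, passed under 7 alternatives and IGFBP7 under 4, beside those that leave out 1 library. Leaving out 1 library in turn gave −0.078 to 0.20 for IGFBP5.

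In pancreas, High against Low, the calls were 4283 genes, 5 members and 21 wider pathway genes. Without the shallow libraries, without the animals whose code begins with 14, and with the library total or the acinar level as a covariate, all 3 counts were 0 (edgeR; 1222, 2183, 533 and 520 genes at an unadjusted p under 0.05). They were 828, 2 and 5 when thinned, and 2828 genes and 3 members in animals whose 2 libraries share a label. These member counts were not set against the share of all genes tested. Without a low-count filter 10836 genes and 32 wider pathway genes passed, and with a filter of 1 CPM 7587 genes. Upper-quartile scaling gave 1467 higher and 2772 lower in place of 1998 and 2285, and moved the median of all genes from 0.07 to −0.11. Leaving out 1 library in turn gave 3 to 5 members. IRS1, IGFBP7, FOXO3 and RICTOR kept their direction and call with the pan-endocrine level as a covariate. Signs turned as follows, and the cause was not tested. Without the shallow libraries IGF1R was −0.049, IGF2R 0.10, IRS2 0.69, IGFBP5 −0.12 and the IGF1R to IGF2R ratio −0.065. Without the animals with code 14, IGF2R was 0.21, IRS2 0.39 and IGFBP5 −0.0078. With the library total as a covariate IGF1R was −0.22, IGF2R 0.073, IRS1 0.18, IRS2 1.01, IGFBP5 −0.41, IGFBP7 −0.073, PHLPP2 0.30 and RICTOR −0.36. With the acinar level IGF1R was −0.21, IRS1 0.29, IRS2 0.75, IGFBP5 −0.19, IGFBP7 −0.16, PHLPP2 0.038 and RICTOR −0.37. IGF2R gained a call in animals whose 2 libraries share a label (−1.11) and when thinned (−1.26). Thinned, IGF1R was −0.044 and IGFBP5 −0.26. IGF2R was 0.21 with no low-count filter and 0.087 with a filter of 1 CPM, IRS2 0.25 and 0.12, and IRS2 0.094 with limma-voom.

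The IGFBP5 to IGFBP7 difference between tissues was 0.79 without code 14. In islets, High against Low, 0 genes passed under any alternative (edgeR, 187 to 1038 at an unadjusted p under 0.05), and members near 0 changed sign. IGF2R was −0.0084 with the acinar level, −0.011 with no low-count filter, −0.0096 with upper-quartile scaling, −0.0012 with limma-voom, −0.0286 with the pan-endocrine level, −0.0291 without code 14, and −0.037 without the library whose source name reads Pancreas. IGFBP7 was −0.0059 with the acinar level, −0.13 with the pan-endocrine level, −0.048 with limma-voom and −0.24 in animals whose 2 libraries share a label, where INSR was −0.12 and IRS1 −0.065. INSR was −0.069 with the pan-endocrine level. The IGF1R to INSR ratio was −0.26 without code 14 and −0.047 without the library whose source name reads Pancreas, and the IRS2 to IRS1 ratio −0.016 without code 14. Leaving out 1 library in turn gave −0.055 to 0.052 for IGF2R, −0.051 to 0.11 for INSR and −0.17 to 0.13 for IGFBP7.

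For the difference between tissues, 5718 genes, 4 members and 25 wider pathway genes became 61, 0 and 1 without the shallow libraries and 9, 0 and 0 without code 14, and 8812 genes passed with no low-count filter. With the animal as a replicate block in the 11 animals of 1 label, 7452 genes and 5 members passed, IGF2R was −0.0089 and IRS2 −0.12. Upper-quartile scaling gave 3995 higher and 1670 lower in place of 3183 and 2535. IGF1R was 0.091 without the shallow libraries, where IGF2R was −0.18, IRS2 −0.23 and IGFBP5 0.69. IGF2R was −0.20 with a filter of 1 CPM, −0.0795 with limma-voom, −0.51 with no low-count filter and −0.26 without code 14. IGFBP5 was 0.0093 with DESeq2, 0.084 with relative log expression scaling, 0.23 with upper-quartile scaling and 0.81 without code 14, and IRS2 was −0.022 with no low-count filter. Of 395 estimates for members under these alternatives 287 kept direction and side of the threshold, 32 lost the call, 20 gained it and 56 changed sign, 48 of these where neither fit passed. Depth limits the density comparison in pancreas, where the median count of a member over the Low libraries was 2 to 37.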
